A study of Cavia porcellus with 18 samples.

Results

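The methylation of 167387 CG sites was measured in guinea pig hippocampus by 2 bisulfite assays. Of these, 21773 (13.0%) lay within 1000 bases of the start site of a gene with no close neighbour listed on the other strand. They were chosen by position alone. Each site was assigned to its nearest listed transcription start site. Start sites with another gene's listed start site on the opposite strand within 1000 bases were left out. A gene not listed with any measured CG site could not count as a neighbour. The 21773 sites belonged to 6745 start sites of 6686 genes on 244 scaffolds. In all, 19315 of the 19847 listed start sites had no such neighbour, so for most of them no CG site was measured within the window in both assays. A start site held a median of 2 sites and at most 266. There were 2390 start sites with 1 site, 1471 with 2 sites and 2884 with at least 3 sites, and the last group held 16441 of the sites.

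The animals were 3 wild type males of Cavia porcellus at 12 weeks of age, and all libraries came from their hippocampi, with no treatment or mutant group named in the labels. Reduced representation bisulfite sequencing (RRBS) reads methylation in DNA cut by restriction enzymes, whatever the chromatin state. ChIP-bisulfite reads it on DNA first precipitated with an antibody against H3K4me1, and ChIP-seq with the same antibody and with one for RNA polymerase II carrying phosphate on serine 5 of its tail (Pol II PS5) gave the peaks. The deposited values pool the animals, so each site has 1 level per assay, no spread between animals could be computed, and the hippocampus was taken as a mixture of its cell types. Errors below are standard errors (SE) or 95% intervals across scaffolds, or SDs across start sites where named. They describe how the level varies along the genome and not between animals, and sites at 1 start site share reads.

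In vertebrate genomes most CG sites are methylated, while CG-rich promoters are usually kept free of methylation. H3K4me1 marks enhancers and the flanks of active promoters, where the nucleosomes next to the start site tend to carry H3K4me3 instead. Pol II phosphorylated on serine 5 accumulates where transcription begins, so a peak of it at a start site is a sign of initiation there.

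Methylation at these start sites was low in both assays. Over the 21773 sites the ChIP-bisulfite level averaged 25% (SE 0.605) and the RRBS level 28.7% (SE 0.581), with medians of 0% and 8%. The 144564 sites farther than 1000 bases from every listed start site had means of 48.3% and 57.9%. Sites near start sites were thus lower by 23.3 points in ChIP-bisulfite (95% interval of the difference -24.6 to -22.1) and by 29.2 points in RRBS (-30.4 to -28.1). A level of exactly 0% was found at 59.9% of the sites in ChIP-bisulfite and at 45.6% in RRBS, against 34.0% and 14.0% of the farther sites. A level of 100% was found at 13.5% and 7.92%. The RRBS levels rested on a median of 17 reads per site (quartiles 13 and 26), the same median as among the farther sites. The tables used here give no ChIP-bisulfite reads per site, so the depth behind a single ChIP-bisulfite level is unknown.

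There was no step at the edge of the window. Sites at 900 to 1000 bases, just inside it, had means of 35.4% in ChIP-bisulfite and 38.4% in RRBS (1968 sites). Sites at 1000 to 1100 bases, just outside, averaged 36.2% and 40.3% over 1842 sites.

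**Figure D1:**
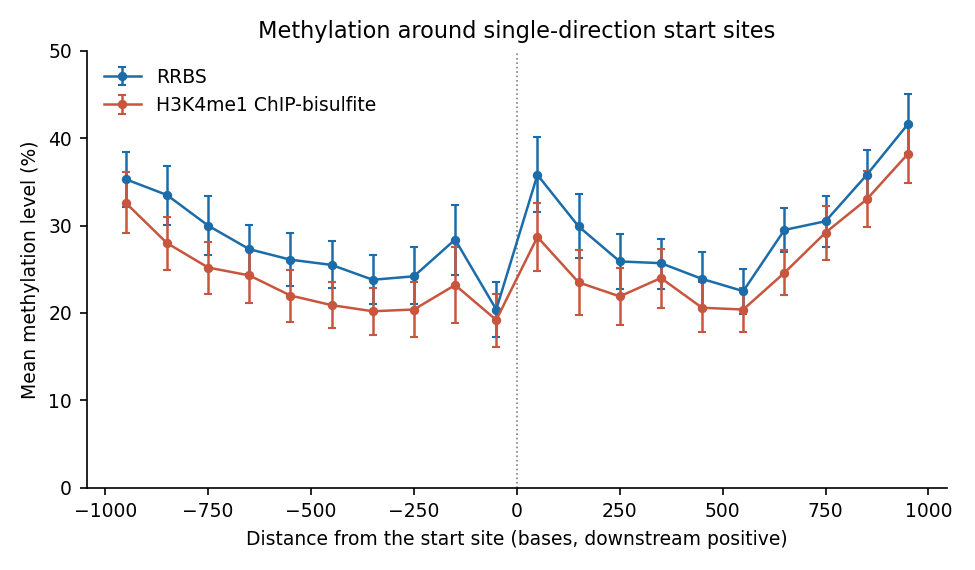
Mean methylation level in 100-base bins (vertical axis, %) against distance from the start site (horizontal axis, bases, downstream positive), with 95% intervals across scaffolds. RRBS ran from 35.3% at the upstream end through 20.4% just before the start site to 41.6% at the downstream end, and the ChIP-bisulfite mean lay below the RRBS mean in each bin.

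The profile in 100-base bins was a broad trough interrupted at the start site. From 35.3% in the bin from -1000 to -900 bases, the RRBS mean fell to 20.4% (SE 1.63, 978 sites) in the last 100 bases before the start. It stood at 35.8% (SE 2.19, 1057 sites) in the first 100 bases after it, came down again to 22.5% (SE 1.30) at 500 to 600 bases and reached 41.6% (SE 1.72) at 900 to 1000 bases. ChIP-bisulfite followed the same course, with 32.6% at the upstream end, 19.2% just before the start, 28.7% just after it, 20.4% at 500 to 600 bases and 38.2% at the downstream end. Sites at 800 to 1000 bases were higher than sites within 200 bases by 8.97 points in ChIP-bisulfite (95% interval 6.32 to 11.6) and by 7.58 points in RRBS (5.01 to 10.1). With each start site given the same weight, these rises were 1.76 points (-1.36 to 4.87) and 0.819 points (-1.94 to 3.58), and both intervals included 0. Downstream sites were higher than upstream sites by 2.60 points in ChIP-bisulfite (0.912 to 4.29) and 2.35 points in RRBS (0.419 to 4.27), and by 0.327 and 0.353 points, with intervals that included 0, when start sites were weighted equally. The RRBS interval also included 0 with at least 20 reads per site (2.25 points, -0.677 to 5.17) and with a neighbour distance of 5000 bases (1.4 points, -0.629 to 3.44).

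The step at the start site was much smaller within start sites than between them. Over all sites, the first 100 bases downstream exceeded the first 100 bases upstream by 15.4 points in RRBS (10.4 to 20.4) and by 9.55 points in ChIP-bisulfite (5.16 to 13.9). In the 127 start sites with sites in both of these bins, the downstream bin was higher by 3.81 points in RRBS (-0.305 to 7.92), with 48 start sites higher, 37 lower and 42 equal. In ChIP-bisulfite the difference there was -0.857 points (-5.74 to 4.03), with 32 higher, 33 lower and 62 equal. The other start sites had sites in 1 of the bins. Averaged per start site, RRBS was at 33.6% in the 310 with upstream sites and at 45.8% in the 408 with downstream sites, so different start sites supplied the bins on the 2 sides.

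The trough itself was present within start sites. In 259 start sites with at least 3 sites within 500 bases and at least 3 beyond, the outer sites exceeded the inner ones by 10.6 points in ChIP-bisulfite (20.7% against 10.2%, 95% interval 6.81 to 14.3) and by 10.2 points in RRBS (23.3% against 13.0%, 6.86 to 13.6). RRBS was higher outside in 165, lower in 74 and equal in 20 of them. In 551 start sites with at least 2 sites on each side, the downstream side was higher by 6.72 points in ChIP-bisulfite (3.92 to 9.52) and 6.35 points in RRBS (3.60 to 9.10). In RRBS 287 of these were higher downstream, 196 lower and 68 equal.

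The start sites with the steepest rise serve as examples of a boundary between low and high sites. The start sites described here and below by position were picked by their own values, so they are descriptions; positions are on the scaffolds of the deposited tables, whose genome build is not given in the sources used here. At the start site at position 45589305 of scaffold_4, the sites at 129, 144 and 150 bases downstream were at 0% in both assays on 11 RRBS reads each. Those at 785, 847 and 940 bases were at 100%, 76% and 81% in RRBS and at 83%, 100% and 90% in ChIP-bisulfite. The sites closest to this start were unmethylated and the farther ones highly methylated in both assays. At position 6161707 of scaffold_76 the boundary lay upstream: 5 sites from -455 to -418 bases had RRBS levels of 0% and ChIP-bisulfite levels of 0% to 3%. Its 3 sites from -781 to -741 bases had 70%, 70% and 78% in RRBS and 100%, 100% and 79% in ChIP-bisulfite. At position 189723 of scaffold_25, 7 sites from -457 to -227 bases had means of 5.00% in RRBS and 5.14% by ChIP-bisulfite, while the 4 sites from 779 to 842 bases averaged 83.2% and 89.0%. No site between -227 and 779 bases was measured in both assays, so where the level changed there is unknown.

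**Figure D2:**
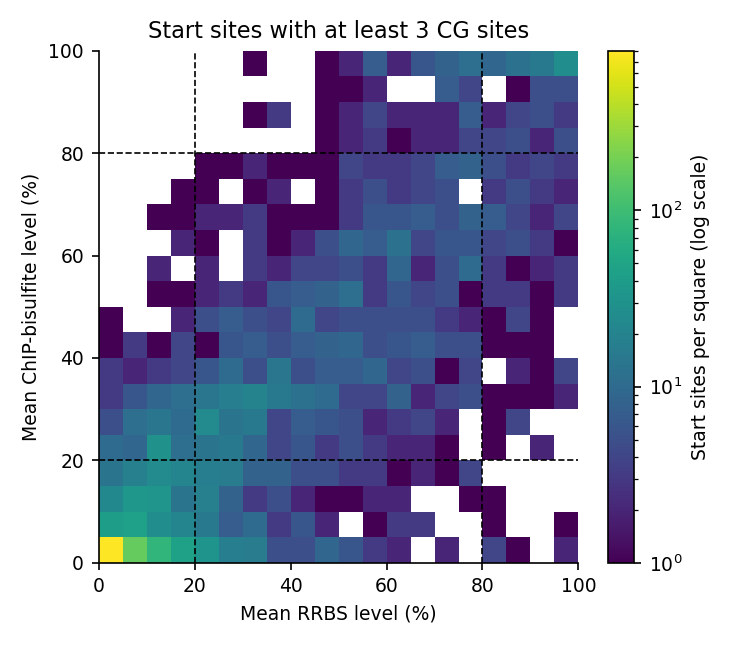
Mean ChIP-bisulfite level (vertical axis, %) against mean RRBS level (horizontal axis, %) of the 2884 start sites with at least 3 sites, counted in squares of 5 by 5 points on a logarithmic colour scale. Dashed lines mark 20% and 80%; the low corner holds 1430 start sites, the high corner 103, and the upper left corner is empty.

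The largest class of start sites was low in both assays. Over the 2884 start sites with at least 3 sites, the mean of the start site means was 23.7% in ChIP-bisulfite (SD 28.6 across start sites) and 27.2% in RRBS (SD 29.0). Both means were at most 20% in 1430 of them (49.6%, exact binomial interval 47.7 to 51.4, which covers counting error only), and in 434 every measured site was at 0% in both assays. Both means were at least 80% in 103 (3.57%, 2.92 to 4.31), of which 8 had every site at 100% in both assays, and both lay between the limits in 728 (25.2%). These shares depended on the number of sites required. With at least 1, 5 and 10 sites, 39.7%, 59.6% and 70.1% were low in both assays and 11.5%, 1.51% and 0.373% high in both. With limits of 10% and 90% the shares were 37.2% and 1.77%, and with 30% and 70% they were 59.3% and 6.80%. RRBS was high and ChIP-bisulfite low in 10 (0.347%, 0.166 to 0.637). The opposite corner, low in RRBS and high in ChIP-bisulfite, held 0 of 2884 start sites, which allows a share of up to 0.104% (3 counts of the total) or 0.128% (upper end of the exact interval). Across the 2884 start sites Spearman's rho between the assays was 0.819, and across the 21773 sites it was 0.684; the assays share the animals and the positions.

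The low class was richer in CG positions and in Pol II than the high class. CG density is given here as the C positions counted by the authors in the H3K4me1 peak that holds the sites, per 1000 bases of the peak; they were taken as CG positions, which the header does not state. Its median was 61.3 in the start sites low in both assays and 40.7 in those high in both. A Pol II PS5 peak overlapped the window of 1000 bases on either side at 592 of the 1430 low start sites (41.4%) and at 12 of the 103 high ones (11.7%). Among the 10 start sites high in RRBS and low in ChIP-bisulfite, 1 had such a peak.

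The start sites highest in both assays differed in how even they were. Among the 8 with at least 5 sites and the highest means, the SD between sites ran from 0 to 27.3 points in ChIP-bisulfite and from 0 to 19.7 points in RRBS. The more even ones were as follows. At position 20678437 of scaffold_30, 5 sites between 23 and 224 bases downstream were at 100% in both assays, on 10 to 15 RRBS reads. This start site had a Pol II PS5 peak in its window, as did the one at position 1948673 of scaffold_101. There, 7 sites at 488 to 702 bases were at 100% in ChIP-bisulfite and at 91% to 97% in RRBS, on 73 to 136 reads.

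Start sites with intermediate means often held both low and high sites. Of 394 start sites with at least 5 sites and a ChIP-bisulfite mean between 20% and 80%, 354 (89.8%) held both a site at most 20% and a site at least 80%. In RRBS this was so in 261 of 452 (57.7%). Few of the single sites lay between these limits, 11.7% in ChIP-bisulfite and 25.4% in RRBS. An intermediate mean of such values mostly has to mix low and high sites, and the part of this in the shares was not tested. The SD between sites within such a start site had a median of 42.7 points in ChIP-bisulfite and 31.8 points in RRBS. Differences between start sites made up 55.5% of the variance of site levels in RRBS and 42.8% in ChIP-bisulfite. Directly adjacent C positions differed by 11.8 points on average in RRBS and by 17.6 points in ChIP-bisulfite over 1792 pairs.

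**Figure D3:**
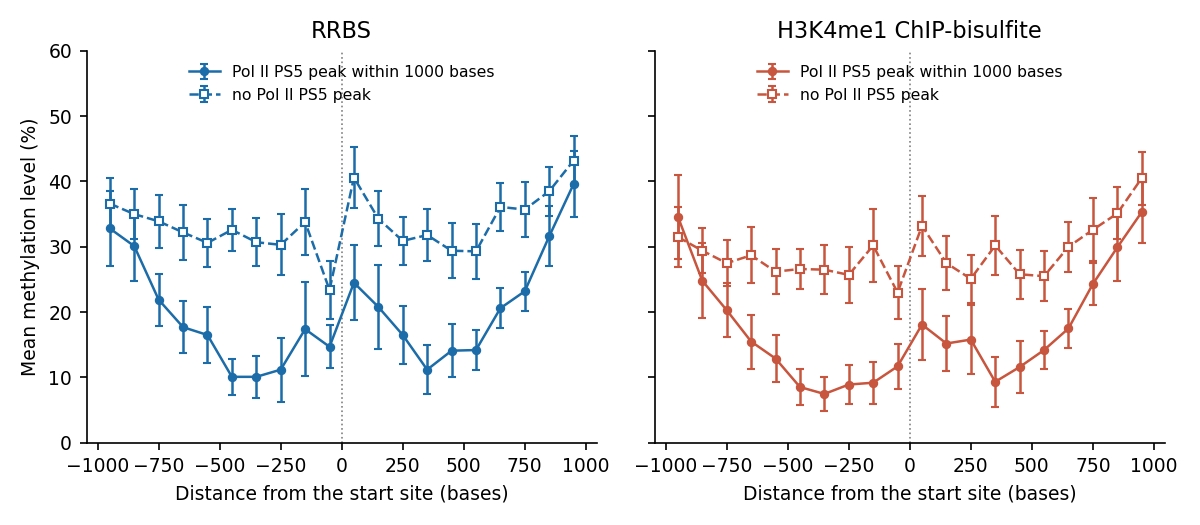
Mean RRBS level (left panel) and mean ChIP-bisulfite level (right panel) in % against distance from the start site in bases, with 95% intervals across scaffolds, for sites at start sites with (filled, solid) and without (open, dashed) a Pol II PS5 peak within 1000 bases. With a peak RRBS falls to 10.1% at -500 to -300 bases and reaches 39.6% at the downstream end, while without a peak the curve is flatter.

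The trough was deep at start sites with a Pol II PS5 peak and shallow at the others. At start sites with a peak (7700 sites), RRBS fell from 32.8% in the bin at -1000 bases to 10.1% (SE 1.63) at -400 to -300 bases and was at 39.6% (SE 2.59) at 900 to 1000 bases. ChIP-bisulfite had 34.6%, 7.48% (SE 1.30) and 35.3% in the same bins. At start sites without a peak (14073 sites), the same bins had 36.6%, 30.7% (SE 1.88) and 43.2% in RRBS and 31.5%, 26.5% and 40.5% in ChIP-bisulfite. The rise from within 400 bases to 800 to 1000 bases was 19.2 points in ChIP-bisulfite with a peak (15.5 to 22.9) and 5.92 points without (3.54 to 8.30). In RRBS it was 18.0 points (13.7 to 22.3) and 5.93 points (3.39 to 8.48). These rises differed by 13.3 points in ChIP-bisulfite (95% interval of the difference 8.56 to 18.0) and by 12.1 points in RRBS (6.75 to 17.4). Taken from within 200 bases, as above, the rise in ChIP-bisulfite was 17.5 points with a peak (13.5 to 21.5) and 5.10 points without (2.12 to 8.09). In RRBS it was then 14.3 points (9.47 to 19.2) and 4.68 points (1.49 to 7.87). Equal weighting of start sites was not applied to the rises with and without a peak. At the outer ends of the window the 2 kinds of start site lay close together.

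The authors' Pol II score per transcript and the Pol II PS5 peaks gave different pictures. Start sites with a score, 1422 of the 2884, averaged 20.3% in ChIP-bisulfite and 23.1% in RRBS, against 27.1% and 31.2% for the 1462 without. The differences were -6.77 points (-8.82 to -4.73) and -8.07 points (-10.1 to -6.07). Start sites with a Pol II PS5 peak, 1021 in number, averaged 17.5% (SD 23.4) and 19.6% (SD 23.4), against 27.1% (SD 30.6) and 31.4% (SD 30.9) for the 1863 without, differences of -9.56 points (-11.5 to -7.63) and -11.8 points (-13.6 to -9.91). Where no peak lay in the window, a score went with no detectable difference: 463 start sites with a score were at 27.0% and 31.1%, and 1400 without were at 27.1% and 31.4%. The differences there were -0.194 points in ChIP-bisulfite (-3.47 to 3.08) and -0.320 points in RRBS (-3.54 to 2.90). Where a peak lay in the window, the 959 start sites with a score differed from the 62 without by -7.90 points in ChIP-bisulfite (-15.8 to -0.0329) and by -5.82 points in RRBS (-12.7 to 1.05). Among start sites with a score, the level came down with its size. In 5 groups of equal number the RRBS mean was 27.7%, 26.3%, 23.7%, 20.3% and 17.5% from the lowest scores to the highest. The share with a Pol II PS5 peak moved with this, from 47.4% in the lowest group to 91.2% in the highest, and its part in the order was not tested.

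The difference by Pol II score depended on how many sites a start site had to hold. With at least 1 site the score difference in RRBS was -15.5 points, with at least 5 sites it was -2.84 points (-5.34 to -0.335), and with at least 10 sites it was 0.371 points (-4.07 to 4.81). ChIP-bisulfite gave -13.9, -1.17 (-3.60 to 1.26) and 0.632 points (-3.34 to 4.6). With at least 5 sites the ChIP-bisulfite interval thus included 0. With at least 10 the values lay slightly above 0, but both intervals included 0, so no difference was detectable in either direction.

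**Figure D4:**
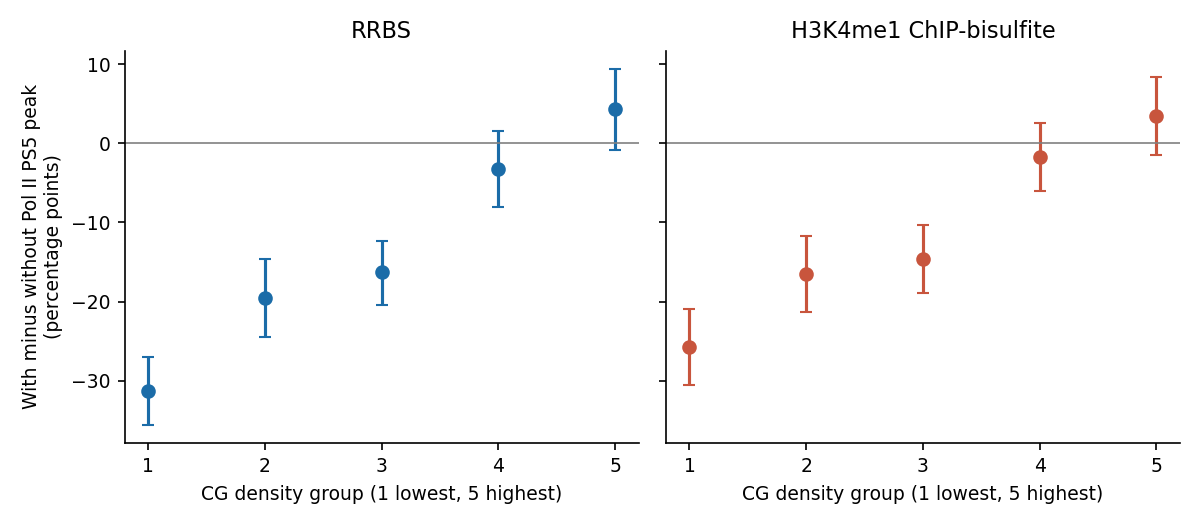
Mean level of start sites with minus without a Pol II PS5 peak (vertical axis, percentage points, 95% intervals across scaffolds) in 5 groups of start sites of equal size by CG density (horizontal axis, 1 lowest to 5 highest), for RRBS (left) and ChIP-bisulfite (right). The difference goes from -31.3 and -25.8 points in group 1 to 4.29 and 3.44 points in group 5, where both intervals include 0.

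The difference between start sites with and without a Pol II PS5 peak changed with CG density. Levels fell with density: from the lowest to the highest of 5 groups, the RRBS mean was 41.2%, 30.5%, 27.3%, 22.8% and 14.0%, and the ChIP-bisulfite mean 35.8%, 27.0%, 24.6%, 19.9% and 11.4%. In the lowest group, with 4.18 to 31.6 C positions per 1000 bases, 206 start sites with a Pol II PS5 peak averaged 21.1% in RRBS and 371 without averaged 52.4%. That is a difference of -31.3 points (-35.6 to -27.0), and the ChIP-bisulfite difference was -25.8 points (-30.5 to -21.0). In the highest group, with 85.0 to 257 per 1000 bases, 112 start sites with a peak averaged 17.5% and 465 without averaged 13.2%, a difference of 4.29 points (-0.875 to 9.45). In ChIP-bisulfite the levels were 14.2% and 10.7% (3.44 points, -1.47 to 8.36). With at least 20 RRBS reads per site, start sites with a peak were the higher ones in this group, by 14.7 points in RRBS (5.37 to 24.0) and 12.0 points in ChIP-bisulfite (2.09 to 21.9). With at least 5 and at least 10 sites per start site the RRBS difference there was 6.04 points (0.213 to 11.9) and 17.1 points (3.63 to 30.6), while the ChIP-bisulfite intervals included 0. In the lowest group, requiring at least 10 sites per start site reduced the differences to -14.8 points in RRBS (-25.5 to -4.18) and -8.60 points in ChIP-bisulfite (-18.1 to 0.912). The Pol II differences in the highest and the lowest group differed from each other by 35.6 points in RRBS (95% interval 29.4 to 41.8) and by 29.2 points in ChIP-bisulfite (23.2 to 35.2). Start sites with a Pol II PS5 peak had RRBS means between 17.5% and 21.1% in the 5 density groups. Those without one ran from 52.4% down to 13.2%. The differences were also averaged over the density groups, each weighted by its number of start sites with a peak. This average was -15.5 points in RRBS (-17.4 to -13.5) and -12.9 points in ChIP-bisulfite (-14.9 to -11.0).

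**Figure D5:**
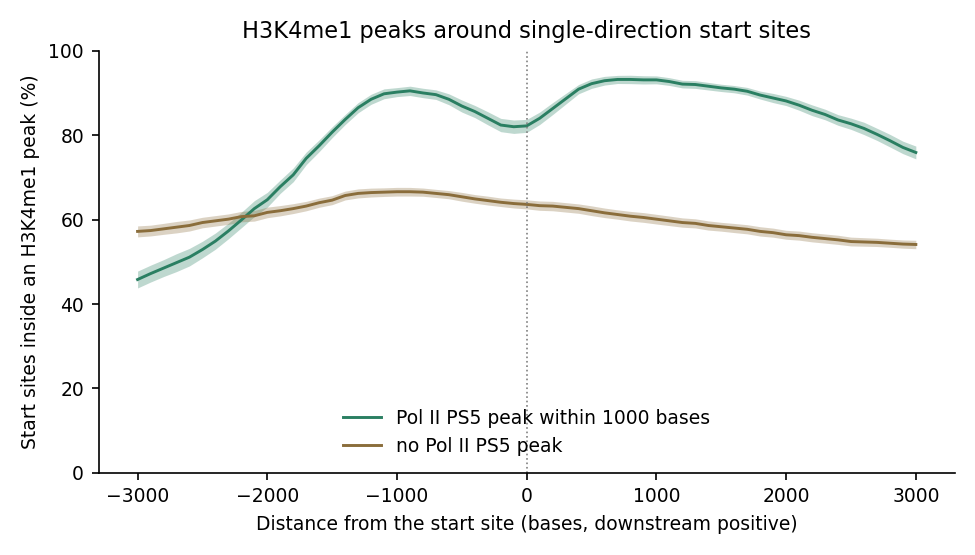
Share of single-direction start sites for which the position at a given distance (horizontal axis, bases, downstream positive) lies inside an H3K4me1 peak (vertical axis, %), with 95% bands across scaffolds, for the 3802 start sites with and the 15513 without a Pol II PS5 peak within 1000 bases. With a peak the share is 90% at -800 bases, 82.2% at the start and 93.2% at 800 bases; without one it is 66.5%, 63.6% and 60.8%.

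H3K4me1 peaks lay on the flanks of start sites with Pol II more often than on the start itself. This comparison used all 19315 listed single-direction start sites, with or without measured CG sites inside the window. A start site is listed only with a CG site measured in both assays, and ChIP-bisulfite reads H3K4me1 DNA. The shares thus hold for the listed start sites and not for start sites in general. At the 3802 start sites with a Pol II PS5 peak, an H3K4me1 peak covered the position 800 bases upstream in 90%, the start in 82.2% and the position 800 bases downstream in 93.2%. The start was covered less often than the downstream flank (difference -11.0, 95% interval -12.4 to -9.56) and less often than the upstream flank (difference -7.76, -9.11 to -6.41). At the 15513 start sites without such a peak the shares were 66.5%, 63.6% and 60.8%, so the start was covered less often than the upstream flank (difference -2.93, -3.65 to -2.20) and more often than the downstream flank (2.78, 2.12 to 3.43). Both flanks but not the start were covered at 433 start sites with Pol II (11.4%, exact interval 10.4 to 12.4) and at 436 without (2.81%, 2.56 to 3.08). Of the 21773 sites, 1 lay outside the H3K4me1 peaks of the authors' table of averages, so the methylation values come from the covered parts of the window. Among the 2884 start sites with at least 3 sites, 101 had no H3K4me1 peak over the start. These averaged 19.9% in ChIP-bisulfite (SE 3.20) and 21.6% in RRBS (SE 2.76), against 23.9% and 27.4% for the others.

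ChIP-bisulfite was lower than RRBS near start sites, by less than elsewhere. The mean difference was -3.75 points (-4.27 to -3.23), against -9.64 points (-9.93 to -9.35) at the farther sites. ChIP-bisulfite was the lower of the assays at 32.0% of the sites, the higher at 21.9% and equal to RRBS at 46.1%. A site near 0% in RRBS can fall no further, so the assays were also compared at equal RRBS level. Within 8 classes of RRBS level, the order was reversed: the difference ChIP-bisulfite minus RRBS was more negative near start sites, by -3.53 points (-4.13 to -2.92), whereas without classes it was less negative by 5.89 points (5.32 to 6.46). Restricting both groups to sites with at least 20 RRBS reads brought this value to -1.50 points (-2.56 to -0.438). Weighting start sites equally gave -2.00 points (-2.71 to -1.28). Measured RRBS levels carry sampling error, with a median of 17 reads, and the groups differ in mean level (28.7% against 57.9%). Sites of equal measured level may thus differ in true level, and the part of this in the value was not tested.

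The difference at equal RRBS level was seen at sites of at most 40% in RRBS. Where RRBS was 0%, ChIP-bisulfite averaged 3.57% at the 9939 sites near start sites and 8.72% at 20220 farther sites, a difference of -5.15 points (-5.66 to -4.64). Where RRBS was above 0% and at most 10% the levels were 10.3% and 16.9%. Where it was above 20% and at most 40% they were 25.5% and 30.1%, a difference of -4.57 points (-6.89 to -2.25). Above 40% in RRBS the intervals of the differences included 0 in each of the 4 classes. At 100% in RRBS, for example, ChIP-bisulfite averaged 78.0% at 1724 sites near start sites and 77.2% at 28931 farther ones (0.841 points, -1.16 to 2.84).

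The authors' deposited list of differentially methylated sites, which holds sites that reach no more than 30% by one method and 70% or more by the other, contained 998 of the sites as lower in ChIP-bisulfite. That is 4.58% of them (4.31 to 4.87), and over all 167387 sites the share was 10.2%. As higher in ChIP-bisulfite it contained 601 (2.76%, 2.55 to 2.99), against 2.93% over all sites. A site can enter the list as lower only if RRBS is at least 70%. Among such sites, 22.9% of 4366 near start sites and 23.9% of 67275 farther ones were listed. Among sites at most 30% in RRBS, 4.31% of 13955 near start sites and 10.8% of 39586 farther ones were listed as higher. Near start sites the share listed as lower was thus close to that of farther sites once only sites that could be listed were counted. The share listed as higher was smaller. However, 9939 of the 13955 sites and 20220 of the 39586 were at exactly 0% in RRBS. The part of this unlike make-up in the smaller share was not tested.

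The start sites with the widest gaps between the assays had few sites. With at least 5 sites, the most negative difference was at position 8479381 of scaffold_18 (ENSCPOG00000003754), where 5 sites at 421 to 450 bases downstream were at 0% in ChIP-bisulfite. In RRBS they were at 100%, 100%, 100%, 88% and 21%, on 13 to 24 reads. No Pol II PS5 peak lay in its window. At position 4436 of scaffold_2369 (ENSCPOG00000020218), 10 sites from -958 to 29 bases had means of 5.00% in ChIP-bisulfite, with an SD of 5.66 points across sites, and 68.2% in RRBS, with an SD of 5.71, on 37 to 68 reads. Its 9 sites from -22 to 29 bases were at 0% to 8% in ChIP-bisulfite and at 59% to 76% in RRBS. Each rested on 66 to 68 RRBS reads. A Pol II PS5 peak lay in the window of this start site. In the other direction, 6 sites at 114 to 145 bases from position 216449 of scaffold_37 (ENSCPOG00000000733) were at 100% in ChIP-bisulfite. In RRBS they were at 41%, 8%, 54%, 8%, 25% and 100%, on 12 to 17 reads. At position 1348789 of scaffold_25 (ENSCPOG00000017110), 6 sites from -478 to -462 bases had means of 58.0% in ChIP-bisulfite, with an SD of 36.3 points, and 10% in RRBS, with an SD of 12.2. These 6 sites form pairs of directly adjacent positions, taken as the opposite strands of the same CG, so they are not 6 separate CGs. The ChIP-bisulfite levels were 83% to 96% at the first position of each pair and 17% to 38% at the second. Among all 2884 start sites, 105 were lower in ChIP-bisulfite by at least 40 points and 31 higher. No such count was made away from start sites, so whether these are many or few was not tested. The difference at single sites had an SD of 29.7 points near start sites and 39.2 points at the farther sites.

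A few start sites held very many sites read to great depth. The 19 start sites with more than 20 sites held 1162 of the sites, and 8 of them, on 3 scaffolds, also had sites with over 200 RRBS reads. These 8 start sites had 871 sites with a median of 114 reads and a highest value of 4283, and averaged 18.0% in ChIP-bisulfite and 25.9% in RRBS. The start site at position 7085 of scaffold_927 alone held 266 sites, with means of 10.6% (SD 12.0 across sites) and 24.6% (SD 19.3). Scaffold_927 carried 5 of the 8 start sites, and whether it is a repeated region, at which reads of several copies would be pooled, was not tested. Over 200 reads were found at 1.48% of the sites near single-direction start sites and at 0.382% of all sites. Without these 8 start sites the other 20902 sites averaged 25.2% and 28.8%.

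Start sites with an opposite-strand neighbour within 1000 bases were lower still. Their 1050 sites, at 265 start sites, averaged 16.0% in ChIP-bisulfite (SE 1.70) and 18.7% in RRBS (SE 1.72). Single-direction start sites were higher by 8.97 points (5.67 to 12.3) and 10 points (6.20 to 13.9). Within 200 bases of the start they were higher by 17.9 points (11.4 to 24.4) and 20.2 points (13.8 to 26.5), with levels of 23.8% against 5.88% and 28.8% against 8.63%. At 500 to 1000 bases the differences were 0.694 points (-4.86 to 6.25) and 0.772 points (-4.38 to 5.93), so none was detectable there. A Pol II PS5 peak lay within 1000 bases of 31.1% of the single-direction start sites and of 63.0% of those with a neighbour. The window of the latter also holds the start of the neighbour. The authors' Pol II score went the other way, with a score at 45.8% of the single-direction start sites and 41.5% of those with a neighbour. The part of Pol II in the difference was not tested. Within 5 groups of CG density, sites with a neighbour differed by -6.03 points (-9.18 to -2.89) in ChIP-bisulfite and -6.84 points (-10.5 to -3.16) in RRBS. At densities of at least 60 C positions per 1000 bases, single-direction sites were higher by 4.80 points in ChIP-bisulfite (1.56 to 8.04) and by 3.25 points in RRBS (-2.96 to 9.46), and at lower densities by 10.5 points (5.62 to 15.3) and 14.1 points (9.32 to 18.8). Single-direction start sites whose nearest opposite-strand start lay at 1000 to 2000 bases, just outside the rule, averaged 20.1% (SE 3.79) and 23.9% (SE 2.54). This group of 1452 sites at 216 start sites included those at positions 7085, 8192 and 5264 of scaffold_927 and 48355729 of scaffold_13. They held 266, 119, 115 and 127 of its sites, so its averages weigh these few deeply read start sites heavily. Neighbours at 500 to 1000 bases gave 20% and 20.4%.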

How the data were processed

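The 18 libraries came from the hippocampi of 3 animals, and 3 of them, RRBS digestion controls, were left out. Per the submitters' processing notes the tools were BSMAP 2.74 for RRBS, Bismark 0.12.5 for ChIP-bisulfite, Bowtie2 2.2.3, MACS2 and HOMER 4.6 for ChIP-seq, SAMtools 1.1 and methylKit, with no role or order. The deposited values are methylation levels in percent per C position, RRBS read counts deposited by the authors for positions with at least 10 reads (5053261 positions, 131062338 reads), a count of C positions per H3K4me1 peak, and a Pol II score per transcript, per the file headers. Their build, and whether positions start at 0 or 1, are not given in the sources used here.

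Each site was counted once, at its nearest start site; 1 site was equally near to 2. Standard errors came from deviations summed by scaffold, and 95% intervals are 1.96 of them on either side. The method was tested on simulated data. No test compares animals, because each assay has 1 pooled value. Reads are not independent molecules, so binomial intervals cover counting error only. Start site means used at least 3 sites unless stated. Start sites described by position were, among those with at least 5 sites, taken from the 5 with the most sites, the 8 highest in both assays, the 6 with the most negative and the 6 with the most positive difference, and the 5 with the steepest rise. The files do not pair gene IDs with names: none of the 19244 IDs matched the gene table, so the planned gene lists and cell type markers could not be applied, no gene symbol is given and the labelled tissue could not be checked against markers. No sequences of the files' build were used.

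The start sites and comparisons were chosen with earlier results of these data known. The following were chosen after values were seen: Pol II peaks with scores, CG density groups, classes of RRBS level, paired comparisons within start sites, H3K4me1 cover, and start sites with more than 20 sites. Alternatives covered read depth, window, neighbour distance, weighting, site minimum and limits. Python 3.11.15, pandas 2.3.3, numpy 2.4.6 and scipy 1.17.1 were used.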

Additional observations from a re-analysis of the deposited data

How the results depend on the processing

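Of 200 values of 18 results under 18 alternative settings, 145 stayed inside the 95% interval of the reported value, 53 moved outside it and 2 changed sign; the causes were not tested. The alternatives without 8 deep start sites, with classes of 1 percent and within CG density groups, and those of the density groups and of the comparison at equal RRBS level, were chosen after seeing the data. The 2 changes of sign were the score differences with at least 10 sites per start site, 0.632 points in ChIP-bisulfite and 0.371 points in RRBS. With at least 5 sites they were -1.17 and -2.84 points, with at least 1 site -13.9 and -15.5, with at least 20 RRBS reads -3.79 and -5.67, with sites weighted equally -4.36 and -4.86, and in a window of 500 bases -11.0 and -11.1. Pol II PS5 peaks in place of scores gave -9.56 and -11.8 points, and -12.9 and -15.5 within density groups. In the lowest density group the peak difference was -32.7 and -38.3 points with at least 1 site, -20.1 and -24.7 with at least 5, and -8.60 and -14.8 with at least 10. In the highest it was 12.0 and 14.7 points with at least 20 RRBS reads, and 17.1 in RRBS with at least 10 sites.

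The share of start sites low in both assays was 39.7%, 59.6% and 70.1% with at least 1, 5 and 10 sites, 37.2% and 59.3% with limits of 10 and 90% and of 30 and 70%, 62.5% in the window of 500 bases and 52.6% with at least 20 reads. The share high in both was 11.5%, 1.51% and 0.373% with these minimums, and 1.77% and 6.80% with these limits. Mean levels in ChIP-bisulfite and RRBS were 33.2% and 37.4% with start sites weighted equally, 22.3% and 26.3% in the window of 500 bases, and 26.2% and 30.5% with at least 20 reads, where the difference between the assays was -4.37 points. Equal weighting gave rises of 1.76 and 0.819 points with distance, 0.327 and 0.353 points for downstream minus upstream, 15.0 points in RRBS for the difference from start sites with a neighbour, and -2.00 points for the gap at equal RRBS level, which was -1.50 points with at least 20 reads. The difference from start sites with a neighbour was 14.2 and 16.1 points in the window of 500 bases, and 4.77 and 5.64 points with a neighbour distance of 5000 bases.

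No paired analysis by animal was possible because the deposited tables hold 1 value per assay over the pooled animals. For the same reason no animal could be left out in turn. Averaging C positions of a CG dyad, leaving out genes with several start sites, the scaffold with the most sites, the deep start sites or sites over 200 reads moved none of the 18 results outside its interval. RRBS levels rest on a median of 17 reads, which limits the precision of single sites, and the shares of start sites in each class depend on the number of sites averaged.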
